A study of Mus musculus with 16 samples.

Results

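The genes described here encode the enzymes, cofactors and inhibitors of blood coagulation and of fibrinolysis, the process that dissolves a clot. They were chosen by name, as a list of 32 factors. A gene was taken as measured when a probe set of the array carried its symbol in the platform's annotation. Of the 32, 30 were on the array, each with 1 probe set, among 19505 gene symbols in all. Klkb1, which encodes the contact factor prekallikrein, and Cpb2, which encodes a carboxypeptidase that slows fibrinolysis, had no probe set named for them. The study measured gene expression in liver and in eWAT, the labels' name for an adipose tissue, of male C57BL/6J mice aged 14 weeks. F1 is the labels' name for offspring of obese fathers, which had eaten a high-fat diet with 45% lipids for 12 weeks from an age of 8 weeks. CT is the name for offspring of fathers kept on chow for the same time. All mothers were control females. Each tissue had 4 F1 and 4 CT libraries, which the labels number as biological replicates. The labels do not tie a library to a father or a litter, so the tests can only measure how far these libraries vary, and libraries may share a father.

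Coagulation proceeds through serine proteases that circulate as inactive precursors and activate each other in sequence. Tissue factor with factor VII, or the contact factors XII and XI, lead to factor X, and factor X with its cofactor factor V turns prothrombin into thrombin. Antithrombin, the protein C system and the protein Z system restrain these steps, and plasmin dissolves the fibrin that thrombin forms. Hepatocytes secrete most of the circulating factors, whereas tissue factor, von Willebrand factor, thrombomodulin and the plasminogen activators come mainly from endothelial, stromal or blood-derived cells. Several factors need a vitamin K-dependent modification that the enzymes Ggcx and Vkorc1 provide.

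The genes were therefore grouped by their known source. There were 19 measured liver-made genes, of which 10 were procoagulant, 6 anticoagulant and 3 belonged to fibrinolysis. The 8 vascular or stromal genes were F3, F8, F13a1, Vwf, Tfpi, Thbd, Plat and Plau. The vitamin K genes Ggcx and Vkorc1 were kept apart. Serpina5, the protein C inhibitor, was set aside because humans make it in the liver and mice mainly in the reproductive tract.

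Each tissue carried its own markers, and the eWAT libraries also held hepatocyte marker transcripts in varying amounts. The mean of 19 hepatocyte marker genes was 19.06 to 19.20 in liver, as log2 expression. In eWAT it was 11.05 to 14.45 in F1 and 7.45 to 13.22 in CT. The mean of 11 adipocyte markers was 17.15 to 17.34 in eWAT and 5.90 to 6.24 in liver. In library 4 of liver F1, the mean of 16 exocrine pancreas markers was 11.38, against 4.18 to 5.11 in the other liver libraries. In library 1 of eWAT F1, the mean of 19 markers of the epididymis and seminal vesicle was 5.67, against 3.02 to 3.18 in the other eWAT libraries. That mean rested on Svs2, Svs5, Svs4, Sva and Spinkl, at 16.22, 14.51, 14.01, 11.27 and 9.56 in this library. The median of the list was 3.26 there, and the epididymal genes Lcn5, Gpx5 and Adam7 were at 2.84, 3.26 and 2.87. Most F1 against CT differences described in detail below are also given without the library concerned. The sorted values of the libraries matched closely within a tissue, with a largest gap of 0.2 in liver and 0.53 in eWAT. Between the tissues the gap was 1.39 to 1.71, so levels are set across tissues below with the reserve that each tissue appears to have been normalized separately.

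Liver was compared with eWAT for the genes as grouped by their known source, which a bulk tissue difference does not itself show. In F1 offspring, 28 of 29 tested genes differed between the tissues with limma at an adjusted p under 0.05, 21 higher and 7 lower in liver. Among all genes 76.1% were called, 18% higher and 58.1% lower. In CT offspring all 29 were called, 21 higher and 8 lower in liver, against 75.5% of all genes, 17.7% higher and 57.8% lower. The median difference of all genes was -0.87 in F1 and -0.85 in CT, and single genes are to be read against that shift. After quantile normalization of the 16 libraries together, these medians were 0.03 in F1 and 0.02 in CT.

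The liver-made genes other than Pros1 had higher values in all liver libraries than in any eWAT library, as 16.1% of all genes did in F1 and 16.1% in CT. Their median difference with Pros1 included was 8.23 in F1 and 9.86 in CT on the log2 scale. Without Pros1 the 18 genes spanned 2.41 to 8.59 over the eWAT libraries, where the hepatocyte marker mean varied as well. The size of the tissue difference therefore varies with the eWAT library, and the part of hepatocyte transcripts in it was not tested. In eWAT 2 of the 19 genes in F1 and 5 in CT had libraries under 3.52, the level below which eWAT values were taken as dim, and with such values set to that level the medians were 8.23 and 9.79. Hrg, a plasma glycoprotein that binds plasminogen and heparin, differed by 9.38 ± 0.93 (SE) in F1 and by 11.49 ± 1.45 in CT. These may be lower limits, since 6 of the 8 liver libraries share the Hrg value 18.89. The highest value of the scale was 19.93, so a ceiling at 18.89 is not shown. F7, whose product binds tissue factor, had the smallest difference of these 18 genes, 5.57 ± 0.50 in F1 and 4.78 ± 0.49 in CT.

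Pros1, which encodes protein S, the cofactor of activated protein C, did not follow the other liver-made genes. In F1 it had 11.49, 10.57, 11.36 and 10.56 in liver, against 10.45, 10.97, 10.81 and 11.32 in eWAT. In CT it had 10.11, 10.43, 10.57 and 10.20 in liver, against 11.52, 11.63, 11.13 and 10.86 in eWAT. The tissues overlapped in F1, whereas every CT liver library lay below every CT eWAT library. The difference was 0.11 ± 0.27 in F1 (adjusted p = 0.733) and -0.96 ± 0.21 in CT (adjusted p = 0.00172). After quantile normalization of all 16 libraries the call moved to the other kind of offspring. Pros1 was then called higher in liver in F1, with a difference of 1.09 (adjusted p = 0.00471), and was not called in CT, with 0.03 (adjusted p = 0.911). The direction in F1 also turned without liver library 1 (-0.06), liver library 3 (-0.01) or eWAT library 1 (-0.04), so Pros1 has no settled direction between the tissues.

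Among the vascular or stromal genes, 7 of 8 were lower in liver in both kinds of offspring, with no overlap between the tissues. Of all genes, 53.9% were lower without overlap in F1 and 53.8% in CT. F13a1, the catalytic subunit of the clot-stabilizing factor XIII that macrophages and platelets carry, differed by -9.59 in F1 and -10.30 in CT. Its liver values of 3.77 to 4.31 lay around 3.91, the level below which liver values were taken as dim. With values under that level set to it, F13a1 was lower in liver by at least 9.57 in F1 and at least 10.22 in CT. Thbd, the endothelial thrombin receptor thrombomodulin, differed by -8.51 in F1 and -8.47 in CT. The plasminogen activator Plau differed by -7.96 in F1 and -8.55 in CT, the second of these with 1 liver library under the dim level. Plat, the other activator, was under the dim level in 4 F1 and 3 CT liver libraries, so it is given as a limit, lower in liver by at least 6.56 in F1 and at least 6.88 in CT. The differences of F3, which encodes tissue factor, were -5.00 in F1 and -4.67 in CT, with 2 CT liver libraries under the dim level, and those of Vwf, which encodes von Willebrand factor, were -4.44 in F1 and -3.80 in CT. Tfpi, the inhibitor of tissue factor, differed by -2.13 in F1 and -1.98 in CT.

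F8, which encodes the cofactor factor VIII and is known in mice as a product of liver sinusoidal endothelium, was the exception. It had 11.57, 11.75, 11.62 and 11.46 in F1 liver, against 10.02, 9.43, 10.10 and 9.79 in F1 eWAT. In CT it had 11.75, 12.18, 11.65 and 12.21 in liver, against 8.82, 8.34, 9.61 and 9.51 in eWAT. All liver libraries lay above all eWAT libraries, and the difference was 1.77 ± 0.19 in F1 (adjusted p = 7.35e-06) and 2.88 ± 0.29 in CT (adjusted p = 5.24e-06). The vitamin K genes were also higher in liver. The carboxylase Ggcx differed by 1.68 in F1 and 1.66 in CT, and the epoxide reductase Vkorc1 by 2.02 in F1 and 2.17 in CT. Serpina5 was at 3.62 to 4.19 in liver and 2.67 to 3.88 in eWAT, near or below the level under which genes were left out as dim, and its tissue difference was not tested.

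**Figure D1:**
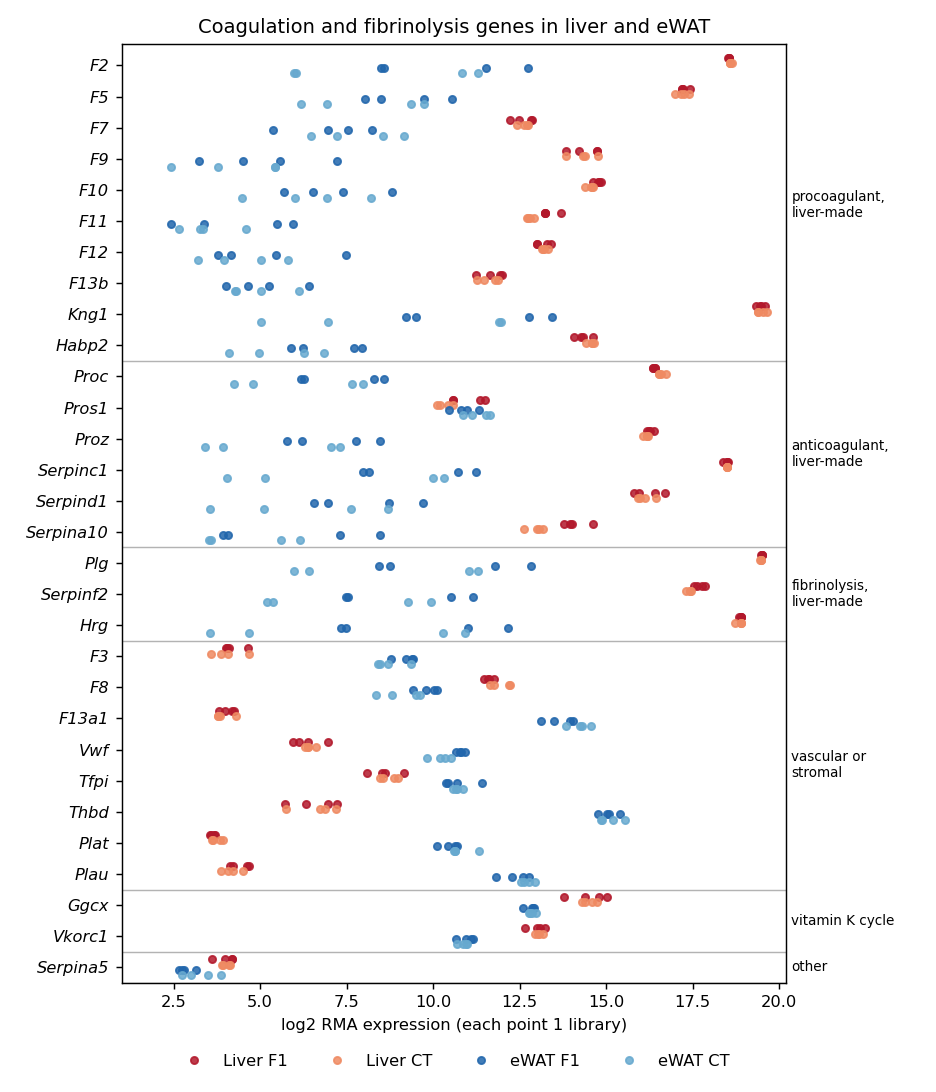
Each point is the log2 RMA expression of 1 gene (rows) in 1 library, with F1 above CT within a row and the tissues in different colours. The liver-made genes other than Pros1 lie to the right in liver and spread widely in eWAT, while 7 of the 8 vascular or stromal genes lie to the right in eWAT and F8 does not.

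Within liver the coagulation and fibrinolysis genes of F1 and CT offspring lay close together. Of 29 tested genes, 15 were higher and 14 lower in F1, with a median difference of 0.03, and the median of all genes was 0. None was called at an adjusted p under 0.05 with limma, where 0.157% of all genes were called. At an unadjusted p under 0.05 there were 3 genes (Serpina10, F11 and Pros1), all higher in F1, and 9.15% of all genes. A share of 3 in 29 is near that background. In 6 of the 29 the 4 F1 libraries did not overlap with the 4 CT libraries, 4 higher and 2 lower, against 5.38% of all genes (2.68% higher and 2.7% lower). Plat was left out as dim, with 3.55 to 3.69 in F1 and 3.6 to 3.92 in CT. In a bulk sample, a change in the number of cells of a type and a change of RNA per cell cannot be told apart.

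Serpina10 had the smallest p among these genes in liver. It encodes the protein Z-dependent protease inhibitor, which blocks activated factor X together with protein Z. Serpina10 had 14.62, 13.94, 14.02 and 13.77 in F1 livers, against 13, 12.62, 13.17 and 13.07 in CT livers. Every F1 liver lay above every CT liver. The difference was 1.12 ± 0.21 (SE) on the log2 scale, a 2.18-fold difference, with an adjusted p of 0.0991 by limma, so it did not pass. It passed when the spread was estimated with limma's trend and robust settings (adjusted p = 0.00989), and its adjusted p was 0.808 in 1 fit of all 16 libraries. Without the library with pancreas transcripts the difference was 1.23 (adjusted p = 0.0998). Proz, which encodes the partner protein Z, had 16.18, 16.27, 16.38 and 16.24 in F1 livers and 16.18, 16.21, 16.17 and 16.07 in CT livers, which overlap.

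F11, which encodes the protease factor XI that activates factor IX, had 13.70, 13.24, 13.22 and 13.22 in F1 livers, against 12.79, 12.74, 12.72 and 12.91 in CT livers. The groups did not overlap, and 3 of the 4 F1 libraries lay within 0.02 of each other. The difference was 0.55 ± 0.16 (unadjusted p = 0.00571, adjusted p = 0.3 by limma), or 0.60 without the library with pancreas transcripts. In Pros1, F1 libraries 1 and 3 were above all CT libraries, and the other two lay at or just under the highest CT value. Its difference in liver was 0.67 ± 0.24 (unadjusted p = 0.0212, adjusted p = 0.46 by limma), or 0.81 without the library with pancreas transcripts.

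The other genes whose groups did not overlap differed less. Serpinf2, the main inhibitor of plasmin, had 17.62, 17.84, 17.76 and 17.54 in F1 livers, against 17.44, 17.43, 17.41 and 17.31 in CT livers (difference 0.29 ± 0.14, adjusted p = 0.567 by limma). F10, the precursor of factor Xa, had 14.85, 14.76, 14.80 and 14.63 in F1 livers, against 14.39, 14.61, 14.56 and 14.58 in CT livers (0.23 ± 0.14, adjusted p = 0.671). All F1 values of both genes were above all CT values, in F10 by a margin of 0.02. Without the library with pancreas transcripts, Serpinf2 differed by 0.34 and F10 by 0.27. Proc, which encodes the anticoagulant protease protein C, had 16.34, 16.42, 16.40 and 16.36 in F1 livers, against 16.51, 16.59, 16.73 and 16.52 in CT livers, and differed by -0.21 ± 0.13 (adjusted p = 0.693), or by -0.20 without that library. F2, which encodes prothrombin, had 18.56, 18.56, 18.51 and 18.55 in F1 livers, against 18.57, 18.62, 18.58 and 18.57 in CT livers. Its difference of -0.04 was -0.04 without the library with pancreas transcripts and turned to 0.05 when the liver libraries were quantile-normalized, so F2 has no settled direction.

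**Figure D2:**
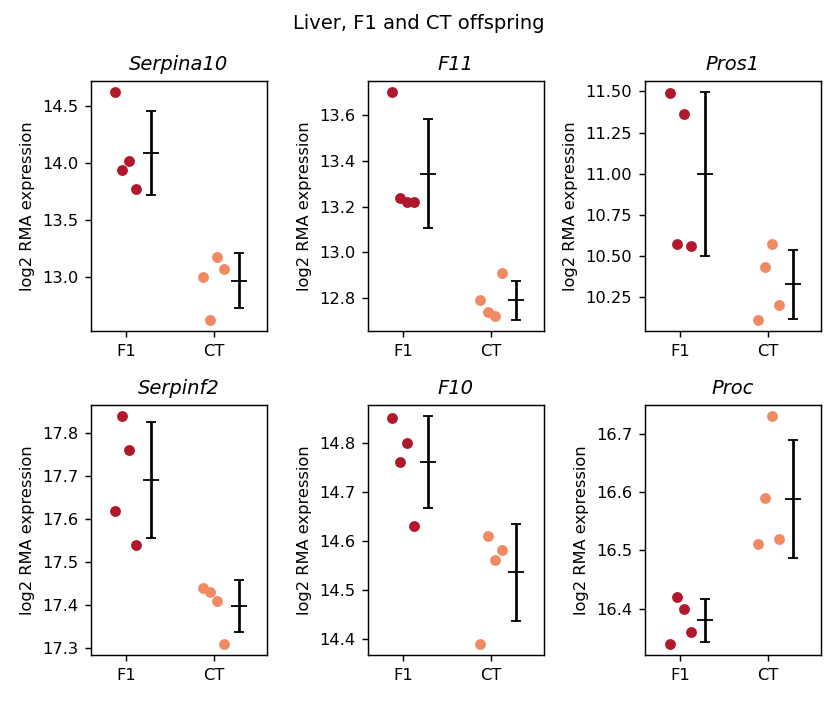
Points show log2 RMA expression in each liver library for 6 genes, F1 left of CT, with the mean and SD (n = 4 each) beside them. The axes differ between genes and do not start at 0. F1 and CT do not overlap except in Pros1, and Proc is the gene that lies lower in F1.

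Of the remaining procoagulant genes, F5, F7, F9, F12, F13b, Kng1 and Habp2 differed between F1 and CT livers by -0.23 to 0.11. Kng1 encodes kininogen, the source of bradykinin, F12 the contact protease factor XII and Habp2 a protease that can activate factor VII. Antithrombin (Serpinc1), heparin cofactor II (Serpind1), plasminogen (Plg) and Hrg differed by -0.02, 0.10, 0.03 and 0.03. Hrg had the value 18.89 in 6 of 8 liver libraries and Serpinc1 the value 18.48 in 5 of 8, so small differences in these bright genes may have been missed. The vascular or stromal genes had a median difference of -0.06 in liver. F8 was the one with the smallest p among them (-0.35 ± 0.17, unadjusted p = 0.0739). The mean of 9 sinusoidal endothelial markers was 10.43 to 10.62 in F1 livers and 10.32 to 10.47 in CT livers. Of these 9 markers, 3 were higher and 6 lower in F1, with a median difference of -0.06. The largest difference was that of Lyve1, with group means of 8.65 in F1 and 7.45 in CT. The part of these markers in the F8 values was not tested. In the mouse gene table, F7, F10 and Proz are neighbours on chromosome 8, and their liver differences were -0.04, 0.23 and 0.11.

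**Figure D3:**
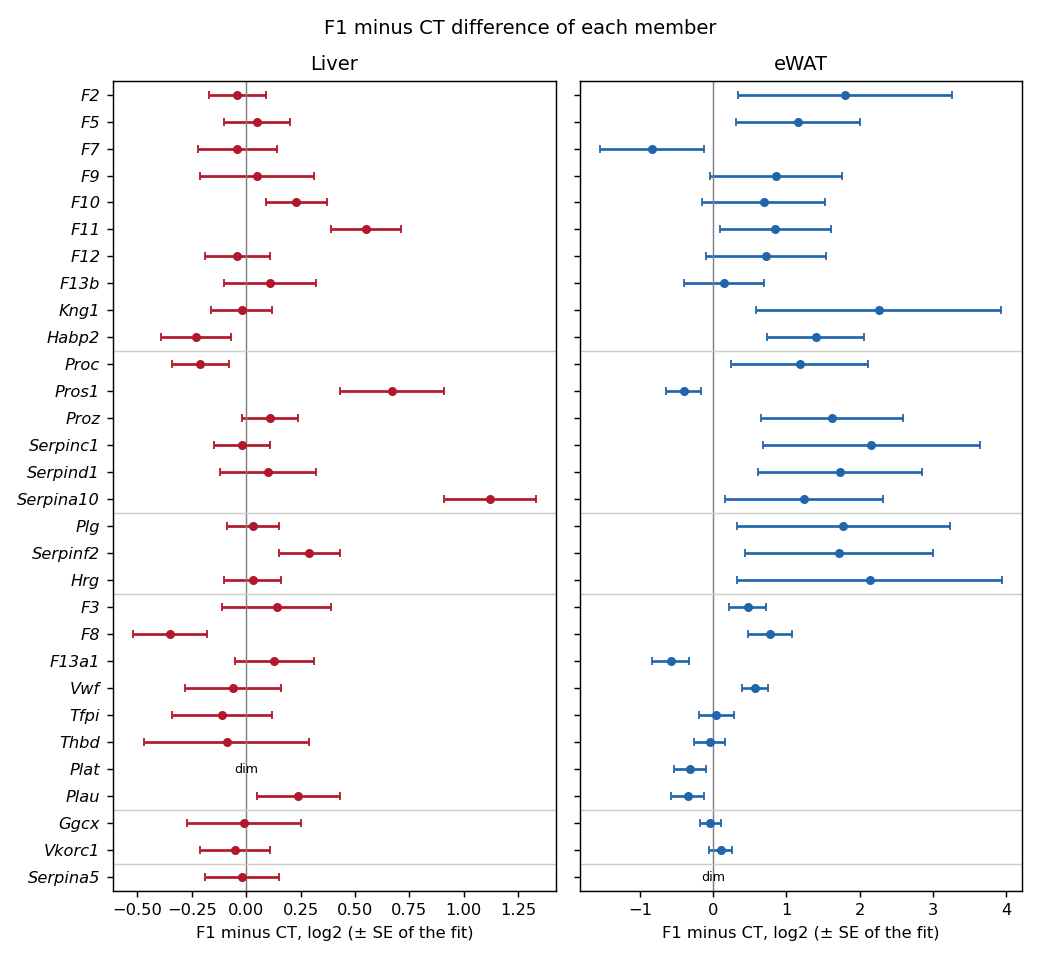
The F1 minus CT difference of each gene (log2, with the SE of the limma fit as bars) is shown for liver on the left and eWAT on the right, with separate horizontal scales. Genes left out as too dim to test are marked dim. In liver most genes lie within their SE of 0 and Serpina10 stands farthest out at 1.12, while in eWAT the liver-made genes have differences up to 2.26 with SE up to 1.81.

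Promoter sequences are shown for the genes that were higher in all F1 livers or had an unadjusted p under 0.05 there, as far as the RefSeq table (GRCm38.p6) holds them, and for F8, the vascular gene that is higher in liver. The table held 22 of the 30 measured genes. Each sequence is the 250 bases before the annotated start, 5′ to 3′ on the gene's strand. Capitals mark matches on either strand to 5 short letter patterns of factors active in hepatocytes: CAAAGTNCA for HNF4, GTTAAT for HNF1, TTGCNNAA for C/EBP, TTCCNGGAA for STAT and TGTTTAC for FOXA.
F11, chr8:45262032-45262281, minus strand: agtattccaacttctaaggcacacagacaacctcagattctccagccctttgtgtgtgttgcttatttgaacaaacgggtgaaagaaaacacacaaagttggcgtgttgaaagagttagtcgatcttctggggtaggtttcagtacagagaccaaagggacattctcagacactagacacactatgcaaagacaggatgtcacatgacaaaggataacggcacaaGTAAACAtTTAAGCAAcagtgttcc
Pros1, chr16:62854057-62854306, plus strand: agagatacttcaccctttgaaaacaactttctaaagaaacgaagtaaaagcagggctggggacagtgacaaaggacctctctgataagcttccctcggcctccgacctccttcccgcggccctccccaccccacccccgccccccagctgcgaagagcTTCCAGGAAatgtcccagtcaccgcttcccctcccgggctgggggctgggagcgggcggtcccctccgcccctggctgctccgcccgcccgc
Serpinf2, chr11:75439502-75439751, minus strand: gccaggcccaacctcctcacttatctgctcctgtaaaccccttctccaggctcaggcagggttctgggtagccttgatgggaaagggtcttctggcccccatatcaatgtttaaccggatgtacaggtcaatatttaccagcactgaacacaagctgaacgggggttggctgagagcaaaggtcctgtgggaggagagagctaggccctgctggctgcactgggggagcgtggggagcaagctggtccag
F10, chr8:13037058-13037307, plus strand: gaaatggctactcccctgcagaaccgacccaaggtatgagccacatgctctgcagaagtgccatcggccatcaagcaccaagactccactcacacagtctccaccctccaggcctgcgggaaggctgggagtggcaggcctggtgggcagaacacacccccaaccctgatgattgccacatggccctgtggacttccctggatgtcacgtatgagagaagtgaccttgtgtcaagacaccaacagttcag
F8, chrX:75380042-75380291, minus strand: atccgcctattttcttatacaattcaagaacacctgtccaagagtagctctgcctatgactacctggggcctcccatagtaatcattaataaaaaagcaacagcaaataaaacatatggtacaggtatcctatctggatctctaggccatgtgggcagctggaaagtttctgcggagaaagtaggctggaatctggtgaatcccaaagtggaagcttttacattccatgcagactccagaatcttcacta

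The F11 window held a FOXA match at bases 25 to 19 and a C/EBP match at bases 17 to 10 before the start, 1 base apart. The Pros1 window held a STAT match at bases 92 to 84, and the windows of Serpinf2, F10 and F8 held none of the 5 patterns. GC content was 64.4% in Pros1, 57.2% in Serpinf2, 57.6% in F10 and 42.8% in both F11 and F8. Among the 15 liver-made genes with a window, HNF4 matched in F9, the HNF1 pattern in F13b, Proz and Habp2, and C/EBP in F11, F9, Habp2 and Hrg. C/EBP also matched in Ggcx and Serpina5, and FOXA in Vkorc1. None of the 5 patterns matched in the 4 vascular or stromal genes with a window. Among all 32851 promoter windows of this length, 1.19% held the HNF4 pattern, 6.43% the HNF1 pattern, 9.56% C/EBP, 0.913% STAT and 3.17% FOXA.

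A further 9 patterns were searched and are not marked. CAAAGTCCA, a stricter form of the HNF4 pattern (0.384% of all windows), GAGGAAGT, a longer ETS pattern (2.44%), and TGTTTGC, another FOXA form (4.3%), matched in no window of these genes. A longer HNF1 pattern that contains GTTAAT, given here by name alone (0.134%), matched in F13b. TTCNNNGAA, which contains the STAT pattern (7.02%), matched in F9 and Pros1, and TATTTAC, one more FOXA form (2.73%), in Hrg and Serpinf2. CCGGAA for ETS (12.0%) matched in Ggcx, Vkorc1, Proz and Habp2, AGATAA for GATA (9.99%) in Serpinf2 and Tfpi, and TATAAA, the TATA box (12.4%), in Tfpi. A match describes the letters of the window and does not show that a factor binds there.

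In eWAT the liver-made genes had the largest differences and the largest spread. Of 29 tested genes, 22 were higher and 7 lower in F1, with a median difference of 0.77, whereas the median of all genes was 0. No gene was called in eWAT with limma at an adjusted p under 0.05, neither among these genes nor among all genes (0%). At an unadjusted p under 0.05 there were 3 of the 29 (Vwf, F8 and F13a1), near the 10% of all genes. Of the 19 liver-made genes, 17 were higher in F1, with a median difference of 1.24, and none reached an unadjusted p of 0.05. Of all genes, 49.6% were higher in F1.

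The values of these genes varied with the library. Hrg had 7.35, 11, 7.48 and 12.15 in F1 eWAT, against 4.69, 3.56, 10.91 and 10.27 in CT eWAT, a difference of 2.14 ± 1.81, and of -0.34 ± 0.27 when the hepatocyte marker mean was a covariate. Kng1 had 9.49, 12.76, 9.20 and 13.43 in F1 eWAT, against 6.95, 5.03, 11.97 and 11.90 in CT eWAT. Serpinc1 had 7.98, 10.72, 8.14 and 11.25 in F1 eWAT, against 5.13, 4.04, 10.31 and 9.98 in CT eWAT. In all 3 genes F1 libraries 2 and 4 and CT libraries 3 and 4 were high, CT libraries 1 and 2 were lowest, and the groups overlapped. Of the 19 liver-made genes, 15 were lowest in CT library 1 or 2 and 16 were highest in F1 library 4. Without Pros1 the 18 genes spanned 2.41 to 8.59 log2 units over the 8 eWAT libraries (median 4.87), and 0.07 to 2.00 over the 8 liver libraries (median 0.44).

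Markers of hepatocytes moved with them in eWAT. The mean of 19 hepatocyte markers was 11.21, 13.51, 11.05 and 14.45 in F1 eWAT, against 8.99, 7.45, 13.22 and 13.09 in CT eWAT, and all 19 were higher in F1. Alb, which encodes albumin, had 16.95, 18.77, 16.65 and 19.07 in F1 eWAT, against 14.16, 12.43, 18.91 and 18.55 in CT eWAT. The list includes Cyp2e1 and Pck1, which adipose tissue also expresses. With the mean of the list as a covariate, an alternative chosen after seeing the data, the median difference of the liver-made genes was -0.09, against 1.24 without it. The list was already seen to vary over the same libraries as these genes, so this fit cannot tell a cause. The part of hepatocyte transcripts in the values of the liver-made genes was not tested. The median was 0.76 without F1 library 4 and 1.75 without F1 library 1, the library with transcripts of the male tract. Without F1 library 1, Hrg, Kng1 and Serpinc1 differed by 2.85, 2.83 and 2.67.

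Pros1 and F7 departed from the other liver-made genes. Pros1 spanned 1.18 log2 units over the eWAT libraries, with its highest value in CT library 2, where the hepatocyte markers were lowest. It differed by -0.40 ± 0.24, or by -0.25 without F1 library 1, which held its lowest value. F7 had 5.36, 6.95, 7.53 and 8.22 in F1 eWAT, against 7.23, 6.46, 8.55 and 9.17 in CT eWAT. The groups overlapped, with a difference of -0.84 ± 0.71, and -1.61 ± 0.49 with the hepatocyte covariate (unadjusted p = 0.00929, adjusted p = 0.42 by limma). Without F1 library 1 the F7 difference was -0.29 and without CT library 4 it was -0.40. F7 was singled out after its values had been seen.

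**Figure D4:**
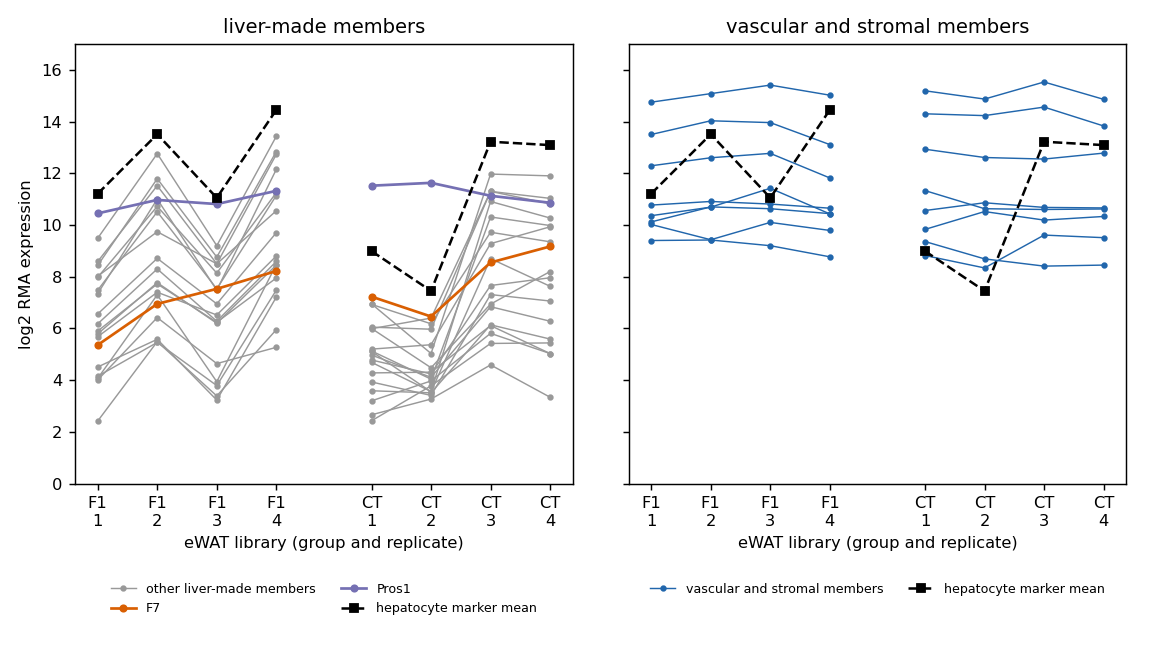
Lines join the log2 RMA expression of each gene over the eWAT libraries, F1 left of CT, for liver-made genes (left panel) and vascular or stromal genes (right panel), with the mean of 19 hepatocyte markers dashed in both. Lines within a group join libraries of no order. Most liver-made genes and the marker mean are high in F1 2, F1 4, CT 3 and CT 4, whereas Pros1 and the vascular or stromal genes span 0.78 to 1.76 log2 units.

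The vascular or stromal genes of eWAT showed smaller differences in both directions, 4 higher and 4 lower in F1, with a median of -0.01. Vwf, which tethers platelets to the vessel wall and carries factor VIII, had 10.77, 10.91, 10.81 and 10.65 in F1 eWAT, against 9.83, 10.52, 10.19 and 10.33 in CT eWAT. The 4 F1 values all exceeded the 4 CT values, and Vwf was the single gene of the 29 of which this was true, against 5.95% of all genes without overlap in either direction. Its difference was 0.57 ± 0.18 (unadjusted p = 0.0106, adjusted p = 0.389 by limma). The mean of 13 endothelial markers was 11.12 to 11.61 in F1 eWAT and 11.22 to 11.47 in CT eWAT, and that of 10 platelet markers was 5.54 to 5.98 in F1 and 5.31 to 5.90 in CT. Both ranges overlap. Of the 13 endothelial markers, 4 were higher and 9 lower in F1 eWAT, with a median of -0.04. Of 8 tested platelet markers, 4 were higher and 4 lower. The part of these markers in the Vwf values was not tested.

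F8, the partner of Vwf in plasma, differed in the same direction in eWAT, where only CT libraries 3 and 4 reached into the range of the F1 libraries. Its difference was 0.77 ± 0.30 (unadjusted p = 0.0295, adjusted p = 0.44 by limma), and 0.54 ± 0.29 with the hepatocyte covariate. F13a1 had 13.50, 14.03, 13.96 and 13.11 in F1 eWAT, against 14.30, 14.23, 14.56 and 13.83 in CT eWAT. It differed by -0.58 ± 0.25 (unadjusted p = 0.042, adjusted p = 0.478 by limma), with CT library 4 inside the range of F1. Of 13 tested macrophage markers, 12 were lower in F1 eWAT with a median of -0.30, and the mean of the 14 measured was 10.02 to 10.61 in F1 and 10.48 to 11.02 in CT. The part of these markers in the F13a1 values was not tested. Without F1 library 1, Vwf differed by 0.57, F8 by 0.70 and F13a1 by -0.53.

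F3 had 9.40, 9.42, 9.20 and 8.77 in F1 eWAT, against 9.36, 8.69, 8.41 and 8.45 in CT eWAT (difference 0.47 ± 0.25, unadjusted p = 0.0904 by limma across all genes), or 0.40 without F1 library 1. CT library 1 lay among the F1 values and the other CT libraries below them all. The anticoagulants of the vessel wall, Thbd and Tfpi, differed by -0.05 ± 0.21 and 0.04 ± 0.24, and the plasminogen activators Plat and Plau by -0.32 ± 0.22 and -0.35 ± 0.22. Ggcx and Vkorc1 differed by -0.04 and 0.10. Serpina5 was left out as dim in eWAT.

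**Figure D5:**
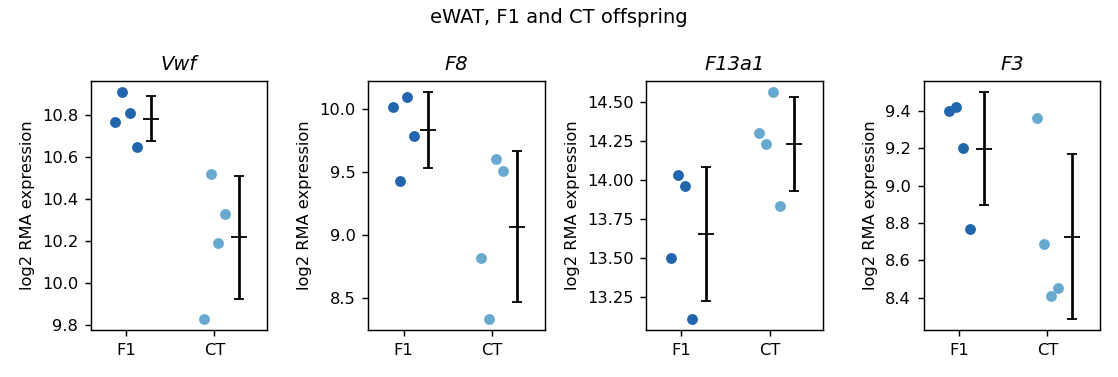
Points show log2 RMA expression in each eWAT library for Vwf, F8, F13a1 and F3, F1 left of CT, with the mean and SD (n = 4 each) beside them. The axes differ between genes and do not start at 0. F1 and CT overlap in F8, F13a1 and F3 and not in Vwf.

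Whether the difference between F1 and CT depended on the tissue was tested as an interaction over the 16 libraries. With limma, 12 genes of all (0.0823%) were called and none of the 29 tested here. At an unadjusted p under 0.05 there were 5 of the 29, against 9.9% of all genes. The F1 minus CT difference of F8 was 1.11 ± 0.36 lower in liver than in eWAT (unadjusted p = 0.00623, adjusted p = 0.33), being -0.35 in liver and 0.77 in eWAT. That of Pros1 was 1.07 ± 0.36 higher in liver (unadjusted p = 0.00835, adjusted p = 0.351), being 0.67 in liver and -0.40 in eWAT. The F1 effects on Habp2, Vwf and F13a1 differed between liver and eWAT by -1.63, -0.63 and 0.71 (adjusted p = 0.466, 0.481 and 0.466). The effect on Serpina10 differed by -0.12 ± 1.16, with an SE far above that of F8 or Pros1.

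A further 31 measured genes of the same pathways included fibrinogen chains, receptors and clearance receptors, and none was called in either tissue. In liver 1 of 28 tested genes had an unadjusted p under 0.05, against 9.15% of all genes. It was Lrp1, the endocytic receptor that removes factor VIII and plasminogen activators from blood, with 16.80, 16.94, 16.95 and 16.78 in F1 livers and 16.63, 16.53, 16.46 and 16.44 in CT livers (difference 0.35 ± 0.13, adjusted p = 0.481 by limma), or 0.38 without the library with pancreas transcripts. In eWAT 2 of 27 were higher and 2 lower at that threshold, against 10% of all genes in either direction. Mmrn1, which encodes the factor V carrier multimerin, had 10.20, 10.21, 9.31 and 9.65 in F1 eWAT, against 8.74, 9.06, 8.60 and 8.41 in CT eWAT (1.14 ± 0.24, adjusted p = 0.357). Plaur, the receptor of urokinase, had 6.19, 6.49, 6.70 and 7.02 in F1 eWAT, against 7.28, 7.46, 7.27 and 7.80 in CT eWAT (-0.85 ± 0.21, adjusted p = 0.363). F1 and CT did not overlap in either gene. Of the 27, 1 was higher and 2 were lower without overlap, against 5.95% of all genes in either direction. Without F1 library 1, Mmrn1 differed by 1.02 and Plaur by -0.72. Mmrn1 was called in 1 fit of all 16 libraries (adjusted p = 0.0464 by limma). The thrombin receptor F2rl3 and Gas6, a vitamin K-dependent ligand related to protein S, differed by -0.78 ± 0.24 and 0.47 ± 0.19.

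Of 12 measured transcription factors that act in hepatocytes, 1 was called in liver, against 0.157% of all genes. Stat3, which interleukin-6 activates and which drives acute-phase genes, had 13.19, 13.28, 12.88 and 12.75 in F1 livers, against 11.99, 11.84, 11.47 and 11.40 in CT livers (1.35 ± 0.19, adjusted p = 0.0334 by limma). Every F1 value of Stat3 lay above every CT value, as in 2.68% of all genes. Without the library with pancreas transcripts Stat3 was still called (1.44, adjusted p = 0.042 by limma). The call was lost without any one of F1 libraries 1, 2 and 3 or CT libraries 2, 3 and 4 (1.26 to 1.4, adjusted p = 0.0864 to 0.118), and with a replicate block (adjusted p = 0.0825). The estrogen receptor Esr1 differed by 0.90 ± 0.33, the liver and fat regulator Cebpa by 0.36 ± 0.14 and Foxa3 by 0.42 ± 0.21, none of which passed. In eWAT none of the 9 tested was called. Nr1h4, the bile acid receptor, differed by 0.77 ± 0.45 there and Onecut1 by 0.72 ± 0.45, Esr1 by 0.38 ± 0.25 and Hnf4a by 1.76 ± 1.26.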

How the data were processed

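The members and gene lists were chosen with earlier results of these data known. RNA (150 ng per sample) was labelled for an Affymetrix mouse array. The deposited log2 values were made by the authors with RMA, and the submitters' processing notes name Transcriptome Analysis Console 4.0. The table held 22206 probe sets, 19572 with 1 gene symbol, 0 with several and 2634 with none. The brightest probe set stood for each of the 55 symbols with several. No scan date was used here. Arrays have no read depth, so their number limits the precision. F1 was compared with CT in each tissue by a moderated linear model of 8 libraries (lmFit and eBayes of limma 3.58.1, run in R 4.3.3), with the interaction over 16 libraries and liver against eWAT within F1 and within CT. A gene was dim, and not tested, if its mean was under the 25th percentile of the fit's values. Benjamini-Hochberg adjustment ran over all tested genes, with 0.05 as the threshold. The fits were tested on simulated data. Alternatives were no filter, trend and robust settings, array weights, quantile normalization, a replicate block, 1 fit of all libraries, leaving out each library, and, added after seeing the data, a hepatocyte covariate in eWAT and tissue differences with dim values set to the dim level. Members were described with the values of each library where the unadjusted p was under 0.05 or the groups did not overlap, and up to 4 genes of each other list by smallest p. Cell type lists for fibroblasts, mesothelium and muscle were measured and not used for any result.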

Additional observations from a re-analysis of the deposited data

Results flagged for a closer look

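In each group of 4 libraries, the highest or lowest value of each gene was compared with the others by Dixon's ratio, the gap to the nearest value over the whole range and with its 95% critical value. Of 120 group and gene pairs, 9 passed, and chance alone passes about 1 in 20. In liver F1, F5 was 17.41 in library 2 against 17.19 to 17.22 in the others, F11 was 13.70 in library 1 against 13.22 to 13.24, F3 was 4.65 in library 3 against 4 to 4.1, and Hrg was 18.84 in library 1 against 18.89. In liver CT, F13a1 was 4.31 in library 1 against 3.77 to 3.84, Hrg was 18.73 in library 1 against 18.89, and Serpinc1 was 18.49 in library 3 against 18.48. The values of Hrg and Serpinc1 lie near the top of the scale, where the other libraries share 1 value. In eWAT, Ggcx was 12.60 in F1 library 1, the library with transcripts of the male tract, against 12.86 to 12.91, and Plat was 11.33 in CT library 1 against 10.60 to 10.63. Without library 1 of liver F1, F11 differed by 0.44 (adjusted p = 0.407 by limma).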

How the results depend on the processing

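None of the 29 tested genes was called in liver, in eWAT or for the interaction when any 1 library was left out. Serpina10 in liver was called with the trend and robust settings (adjusted p = 0.00989) and in no other of its 15 alternatives, with differences of 0.95 to 1.23 and adjusted p up to 0.808. F2 in liver differed by 0.05 under quantile normalization, against -0.04. Stat3 in liver lost its call with a replicate block and without any 1 of 6 of the 8 libraries (differences of 1.26 to 1.46 over the libraries left out), and Mmrn1 in eWAT was called in 1 fit of all 16 libraries (1.14, adjusted p = 0.0464). With the hepatocyte covariate Hrg in eWAT was -0.34, against 2.14, and Kng1 -0.04, against 2.26. Pros1 between the tissues was 1.09 in F1 and 0.03 in CT after quantile normalization of all 16 libraries, and -0.06 to 0.25 in F1 when 1 library was left out, against 0.11 and -0.96. Of the other 28 genes, none changed its direction or call between the tissues under any of these alternatives. The other genes recomputed one by one kept their direction and their side of the threshold. They were the members with an unadjusted p under 0.05 or no overlap, and further genes chosen by name. Proz in liver and Alb in eWAT were not among them. Counts over all genes moved more. The 23 genes called in liver became 75 with the trend and robust settings, 51 in 1 fit of all 16 libraries and 7 to 24 when 1 library was left out, with 7 without CT 2 or F1 3, 8 without CT 4 and 10 without CT 3 or F1 2. The 0 in eWAT (1466 at an unadjusted p under 0.05) became 28 in 1 fit of all libraries and 0 to 1 when 1 library was left out, the 1 without CT 4 or F1 4. The 12 of the interaction became 38 with the trend and robust settings and 7 to 26 when 1 library was left out, with 22 without liver F1 4, 26 without eWAT F1 3, and 7 without eWAT CT 3 or eWAT F1 1. The cause was not tested. Over the whole expression values, any 2 liver libraries correlated at 0.985 to 0.991 and any 2 eWAT libraries at 0.976 to 0.991. A liver library and an eWAT library correlated at 0.751 to 0.815. The correlations used to judge pairing by number are a separate measure, not taken on the whole expression values. On that measure, same-numbered F1 and CT libraries correlated at -0.06 to 0.06 in liver and -0.31 to 0.21 in eWAT. Same-numbered liver and eWAT libraries correlated at 0.03 to 0.05 in F1 and 0.01 to 0.04 in CT. No set of 4 pairs was above 0.1 throughout, so the numbers were not taken to pair the samples, although each of the 4 liver F1 libraries, and 2 of the 4 liver CT libraries, correlated best with the eWAT library of its own number, which is a hint from the data. The replicate block joined all libraries of a number, F1 and CT alike, so for the interaction it did not model an animal that gave both tissues. The main interaction fit took liver and eWAT libraries as independent. With a replicate block, 6 genes were called in liver, 0 in eWAT and 9 for the interaction. Stat3 in liver was lost (adjusted p = 0.0825), and no other gene recomputed one by one changed its call. The tissues appear to be normalized apart, some bright liver genes share 1 value in most liver libraries, and 4 libraries a group limit what can be detected.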
